A study of Sus scrofa with 24 samples.

Results

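IGHA, TNFSF13B and CCL19 are 3 genes tied to antibody-producing plasma cells and to the tissue niche that holds lymphocytes. They were followed in the hearts of domestic pigs with a chronic infarct. A probe of the array belongs to one of them when the gene name or an accession in the scanner files leads to that symbol. This rule found 6 probes, 3 for IGHA, 2 for TNFSF13B and 1 for CCL19, and all 6 passed the filter on dim probes. On the whole array 7330 genes were named, and 6545 of them had a probe that passed the filter. The genes were picked with results of these arrays in view, so their differences between regions and arms are given as a description, and support nothing beyond the values printed.

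All animals had a closed-chest reperfused infarct, with aspirin and clopidogrel. They were randomized 1 month later to injections into the heart muscle, with medium as placebo or with the secretome that apoptotic mononuclear blood cells release. Tissue was taken 1 month after treatment in 3 regions: the core of the infarct, its border zone, which received the injections, and a remote region, called normal region here. The labels mark the samples of pigs 10, 18 and 40 as not treated, and these were taken as the medium arm. Medium gave 3 arrays of the infarct core, 3 of the border zone and 2 of the normal region, and secretome gave 6, 6 and 4, from 9 pigs and 24 one-colour arrays in all. No healthy heart was analysed here, and the normal region is muscle of the same injured hearts.

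IGHA encodes the constant part of the heavy chain of IgA, the antibody class made by plasma cells that serves mucosal surfaces and also circulates. TNFSF13B encodes BAFF, a cytokine released mainly by myeloid and stromal cells, on which mature B cells and some plasma cells depend for survival. CCL19 is a chemokine made by stromal cells of lymphoid tissue, and its receptor CCR7 guides T cells, B cells and dendritic cells into that tissue. CCL19 lies next to CCL21, the other CCR7 ligand, in the pig annotation. In chronically inflamed organs these genes are often studied as parts of lymphoid aggregates.

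The values rest on short stretches of these transcripts, so the probe sequences are shown, read from the array files 5′ to 3′. Capitals mark the 16 bases that the last stretch of one IGHA probe shares with the start of another, which means that these 2 probes overlap and are not separate looks at the gene.
IGHA, brightest probe: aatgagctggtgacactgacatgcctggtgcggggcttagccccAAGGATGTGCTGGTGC
IGHA, overlapping probe: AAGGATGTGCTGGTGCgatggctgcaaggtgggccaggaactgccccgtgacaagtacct
IGHA, separate probe: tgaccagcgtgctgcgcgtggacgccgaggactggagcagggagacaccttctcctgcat
TNFSF13B, brighter probe: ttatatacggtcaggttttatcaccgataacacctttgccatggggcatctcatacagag
CCL19: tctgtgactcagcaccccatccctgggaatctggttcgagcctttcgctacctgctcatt

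No probe named for another gene shared a run of 20 bases with any of them. The IGHA probes shared at most 11 bases in a row with any other immunoglobulin probe of the array, so they read IgA apart from the IgG probes as far as exact runs go. A weaker match with mismatches was not tested. The sequences have 43.3% to 65.0% G and C.

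Every value below is the log2 of the background-subtracted signal relative to the 75th percentile of the same array, so 0 is the level of that percentile and 1 unit is a doubling. Each gene was read from its brightest probe. Levels of different genes were not compared, since probes differ in how strongly they bind. Bulk tissue cannot tell more cells of a type from more RNA per cell.

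Across 9 pigs, IGHA was the member whose infarct core differed most from the other regions. In the infarct core of the medium arm it stood at 4.32 in pig 10, 5.43 in pig 18 and 6.15 in pig 40, and in the secretome arm it ranged from 2.41 to 6.36 with a median of 4.65. In the border zone the medium arm gave 1.39, 3.58 and 1.94 in the same order of pigs, and the secretome arm ran from -0.66 to 2.92 with a median of 0.03. In the normal region the values were 0.52 and 1.75 in the medium pigs 10 and 18, and -0.10, -0.17, -0.72 and 0.15 in the secretome pigs 11, 14, 15 and 16. Every infarct core array lay above every normal region array, the closest being 2.41 and 1.75, which held for 9.50% of the 6545 named genes, whereas border zone and normal region arrays overlapped. Among the border zone arrays pigs 16 and 18 were the 2 highest.

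The fitted difference of IGHA between infarct core and normal region was 4.43 ± 0.45 (SE) on the log2 scale, a fold of 21.5. Within the 6 pigs that gave both regions the difference was positive in all 6, from 2.51 in pig 11 to 6.21 in pig 16, and 22.7% of named genes were higher in all 6. Against the border zone the infarct core was higher by 3.55 ± 0.39, a fold of 11.7, and higher in 9 of 9 pigs, as were 16.1% of named genes. The smallest of these 9 within-pig differences was 1.85 in pig 18, whose border zone was the highest, and the largest was 5.97 in pig 14. The border zone exceeded the normal region by 0.87 ± 0.45, positive in 5 of 6 pigs. Of these 6 pigs, pig 16 had the largest border zone excess, 2.77, and pig 11 the smallest value, -0.29.

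The other IGHA probes gave the same picture, with infarct core minus normal region differences of 4.52 ± 0.45 for the overlapping probe and 4.38 ± 0.42 for the separate probe. Over the 24 arrays the separate probe, which has no such overlap, correlated with the brightest at r = 0.996. Read from the brightest probe, the mean IGHA level was 4.82 ± 1.36 (SD, n = 9) in the infarct core, 1.08 ± 1.5 (SD, n = 9) in the border zone and 0.24 ± 0.85 (SD, n = 6) in the normal region, so the spread between pigs was wide in both injured regions.

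**Figure D1:**
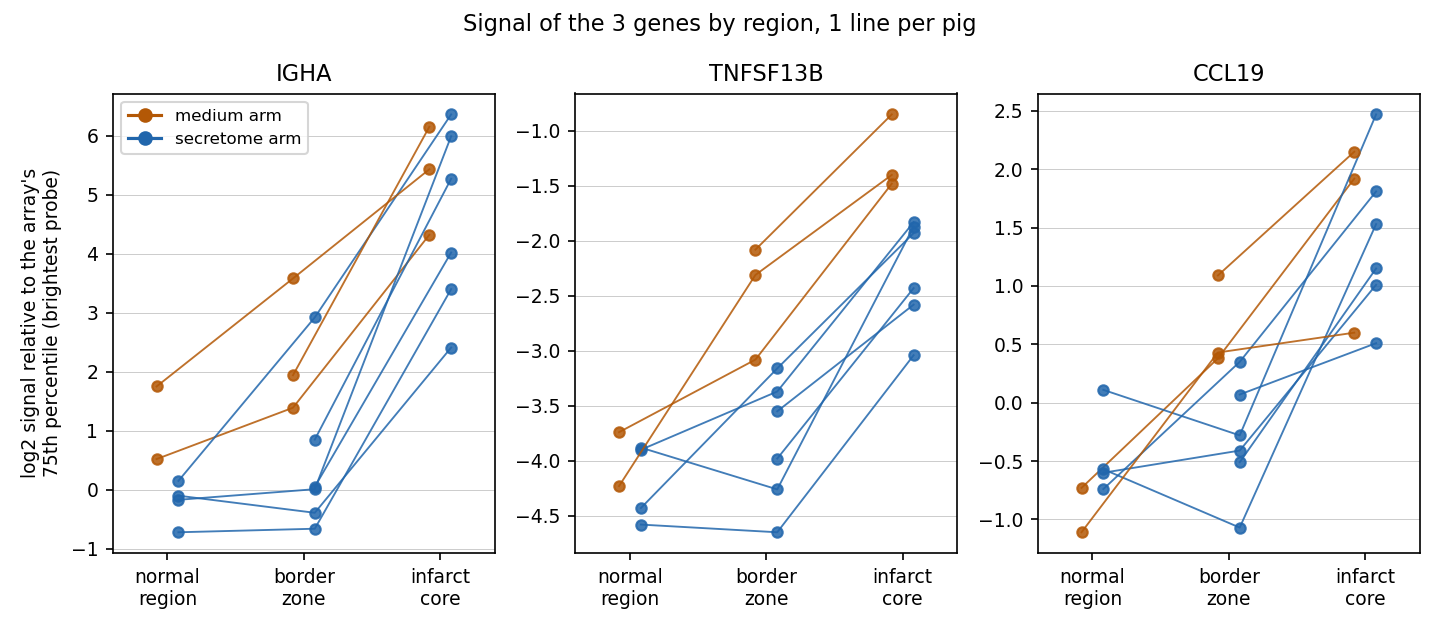
Log2 signal of IGHA, TNFSF13B and CCL19 relative to each array's 75th percentile (y axis) in the normal region, border zone and infarct core (x axis), 1 point per array and 1 line per pig, coloured by arm. Each gene is read from its brightest probe. In each panel all infarct core points lie above all normal region points, as for 9.50% of named genes. For TNFSF13B the 3 medium pigs lie above the 6 secretome pigs in both the infarct core and the border zone. With its second probe, not shown, the arms overlapped.

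TNFSF13B was dim but well above background on all 24 arrays with its brighter probe. In the infarct core the medium arm gave -1.48 in pig 10, -1.40 in pig 18 and -0.85 in pig 40, and the secretome arm ranged from -3.04 to -1.83 with a median of -2.18. In the border zone the medium values were -3.08, -2.31 and -2.08, and the secretome arm ran from -4.65 to -3.16 with a median of -3.76. In the normal region pigs 10 and 18 stood at -3.74 and -4.23, and the secretome pigs 11, 14, 15 and 16 at -4.58, -3.88, -3.90 and -4.43. With the brighter probe every infarct core array thus lay above every normal region array, as for 9.50% of the 6545 named genes. The arms did not overlap in either injured region with this probe, but they overlapped in both with the second, dimmer probe.

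Its mean level was -1.94 ± 0.67 (SD, n = 9) in the infarct core, -3.38 ± 0.85 (SD, n = 9) in the border zone and -4.13 ± 0.34 (SD, n = 6) in the normal region. TNFSF13B was higher in the infarct core than in the normal region by 2.27 ± 0.20, a fold of 4.83, and in all 6 pigs, from 1.54 in pig 11 to 2.84 in pig 18. It exceeded the border zone by 1.40 ± 0.17, a fold of 2.63, in 9 of 9 pigs. The border zone stood above the normal region by 0.88 ± 0.20 and in 4 of 6 pigs. This last difference was 1.49 within the scan series of pigs 12, 13, 16, 18 and 40 and 0.34 within that of pigs 10, 11, 14 and 15. In the first of these series only pigs 16 and 18 gave a normal region array. The size of the infarct core difference moved with the treatment of background. It was 0.98 with normexp background correction, an offset of 50 units and quantile normalization, and 0.59 in the authors' deposited log2 values. The second TNFSF13B probe was well above background on 9 of 9 infarct core, 6 of 9 border zone and 1 of 6 normal region arrays, and correlated with the first at r = 0.960.

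CCL19 was well above background on all 24 arrays. In the infarct core it measured 1.92, 0.60 and 2.15 in the medium pigs 10, 18 and 40, and from 0.51 to 2.47 with a median of 1.34 in the secretome arm. In the border zone the medium pigs gave 0.38, 0.43 and 1.09, and the secretome arm ran from -1.07 to 0.35 with a median of -0.34. In the normal region the medium pigs 10 and 18 were at -0.73 and -1.11, and the secretome pigs 11, 14, 15 and 16 at -0.57, 0.11, -0.60 and -0.74. All infarct core arrays lay above all normal region arrays, as for 9.50% of named genes, but the gap was small, 0.51 against 0.11.

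CCL19 had a mean of 1.46 ± 0.69 (SD, n = 9) in the infarct core, 0.01 ± 0.64 (SD, n = 9) in the border zone and -0.61 ± 0.40 (SD, n = 6) in the normal region. The infarct core exceeded the normal region in CCL19 by 2.12 ± 0.25, a fold of 4.35, in all 6 pigs, with within-pig differences from 1.61 in pig 15 to 2.65 in pig 10. Against the border zone the difference was 1.32 ± 0.21, a fold of 2.50, and positive in 9 of 9 pigs, although in pig 18 it was only 0.17. It was 0.90 and 1.90 within the 2 scan series. The border zone stood above the normal region by 0.80 ± 0.25, in 4 of 6 pigs.

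These member values sit in a comparison in which much of the transcriptome differed. Between infarct core and normal region 27.6% of the 6545 named genes were higher at a limma adjusted p under 0.05, and 31.0% were lower. Since this contrast is among those in view when the genes were picked, nothing is read from their position in it. For infarct core against border zone 25.6% were called higher. For border zone against normal region 0.596% were called higher.

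Within each arm the fitted means of all 3 genes had the order infarct core, border zone, normal region. With medium alone the infarct core minus normal region difference was 4.08 ± 0.73 for IGHA, 2.60 ± 0.32 for TNFSF13B and 2.29 ± 0.40 for CCL19. With secretome alone it was 4.78 ± 0.52, 1.95 ± 0.23 and 1.95 ± 0.28 in that order. The border zone minus normal region step was 1.08 ± 0.73 with medium and 0.66 ± 0.52 with secretome for IGHA, 1.35 ± 0.32 and 0.40 ± 0.23 for TNFSF13B, and 1.37 ± 0.40 and 0.23 ± 0.28 for CCL19. The difference between these steps was not tested.

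The second question of the design was whether the secretome changed these genes. No member passed the threshold in any region, so none of the differences between arms is called. For TNFSF13B the secretome arm was lower by 1.34 ± 0.36 SE in the border zone (limma adjusted p = 0.657) and by 1.04 ± 0.36 in the infarct core (limma adjusted p = 0.977).
For IGHA the fitted secretome minus medium difference was -1.84 ± 0.82 in the border zone (limma adjusted p = 0.682) and -0.73 ± 0.82 in the infarct core (limma adjusted p = 0.982).
For CCL19 it was -0.94 ± 0.45 in the border zone (limma adjusted p = 0.682) and -0.14 ± 0.45 in the infarct core (limma adjusted p = 0.989). The CCL19 difference in the infarct core turned to between 0.04 and 0.15 when pig 10, 12 or 40 was left out. In the normal region, with 2 medium arrays, the differences were -1.42 ± 0.94 for IGHA, -0.39 ± 0.41 for TNFSF13B and 0.20 ± 0.51 for CCL19.

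TNFSF13B was the one member whose 3 medium arrays lay above all 6 secretome arrays both in the core and in the border zone. Among named genes 1.82% did so in the infarct core, 1.56% in the border zone and 0.229%, or 15 genes, in both. These 15 included the macrophage marker C1QA and the dendritic cell marker CD86, named here after their values were seen. The margin of TNFSF13B was small, -1.48 against -1.83 in the infarct core and -3.08 against -3.16 in the border zone. CCL19 did so in the border zone alone, 0.38 against 0.35, and IGHA in neither. With the second TNFSF13B probe the arms overlapped in both of these regions. In the normal region both medium arrays of IGHA, at 0.52 and 1.75, lay above the 4 secretome arrays, which reached 0.15, as did 1.99% of named genes. Within the 2 scan series the TNFSF13B difference in the infarct core was -1.19 and -0.76, and in the border zone -1.37 and -1.02. Without pig 40 the differences were -0.84 and -1.13.

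Whether the arm difference was itself unlike between infarct core and border zone was tested by an interaction term. It was 1.12 ± 0.78 for IGHA (limma adjusted p = 0.846), 0.30 ± 0.34 for TNFSF13B (limma adjusted p = 0.898) and 0.80 ± 0.42 for CCL19 (limma adjusted p = 0.842). No difference between these regions was called for any of the 3. Over all named genes limma called 2 between arms within the infarct core (0.0306%) and 0 within the border zone, beside 363 and 574 at an unadjusted p under 0.05.

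IGHA was one of many immunoglobulin probes, and most of the others had the same regional pattern. Of 38 probes described as immunoglobulin in the array files, 35 passed the filter and 32 of these were not IgA. Between infarct core and normal region, 28 of the 32 were higher at a limma adjusted p under 0.05, beside 25.4% of all 34278 kept probes. Their median difference was 5.95, against 4.43 for the brightest IGHA probe. Limma called 0 of the 32 between border zone and normal region, beside 0.446% of kept probes called higher. Of the 32, 21 had an unadjusted p under 0.05, beside 14.3% of kept probes, and the median difference was 1.72. Both the 28 and the 21 include 13 probes of the IgG heavy chain, and probes of the same gene are not separate observations. Immunoglobulin genes share sequence, so the classes named here are those of the descriptions and cannot be fully told apart by the probes.

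The heavy chain of IgG, the main circulating antibody class, was read by 13 probes, listed under LOC396781. All 13 were higher in the infarct core than in the normal region, by 5.79 to 6.46. Its brightest probe stood between 4.53 and 9.11 in the infarct core and between -0.14 and 4.91 in the normal region, and the highest normal region value, in pig 18, exceeded the lowest infarct core value, in pig 11. The single probe described as IgM, the antibody class made first in a response, was higher by 2.58 ± 0.43. The 6 lambda light chain probes were higher by 3.76 to 5.84, and all passed. The probe at 3.76 was well above background on 8 of 9 infarct core, 3 of 9 border zone and 1 of 6 normal region arrays. Of 10 kept probes for rearranged heavy chain sequences 6 passed as higher, and the other 4 lay between -0.63 and -0.33. The passing ones included probes well above background on only 1 and 3 of 6 normal region arrays. A probe described as TNFRSF17, a receptor on plasma cells that can bind BAFF, was higher by 1.54 ± 0.31 and passed.

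**Figure D2:**
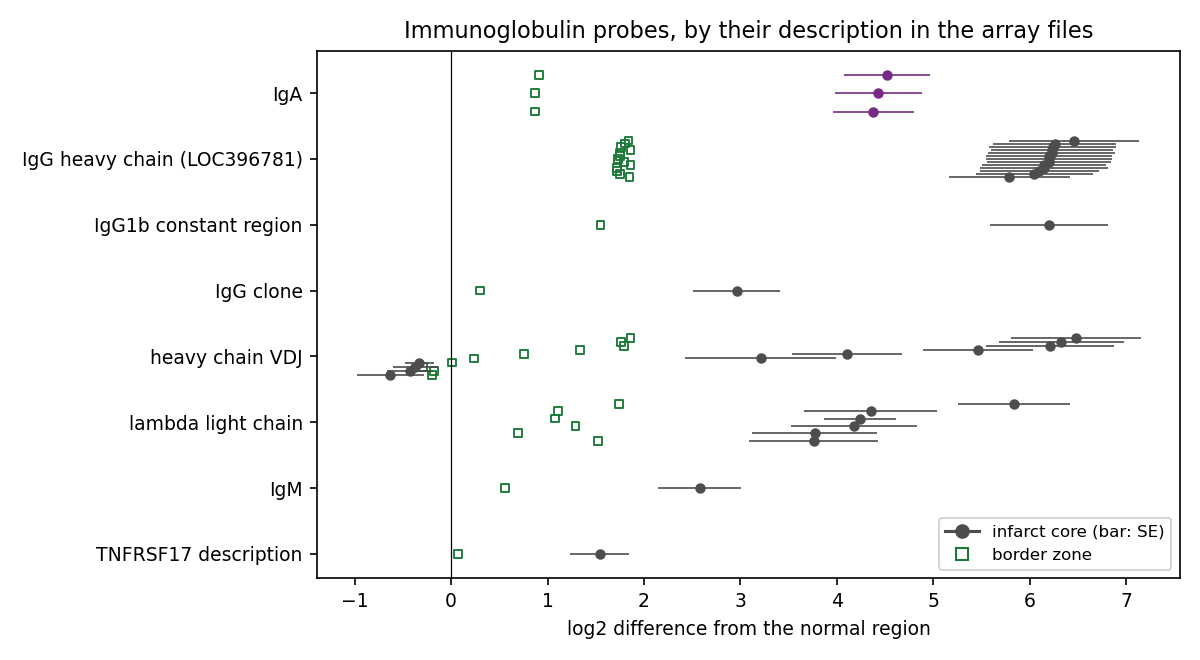
Log2 difference from the normal region (x axis) of each kept immunoglobulin probe and of the probe described as TNFRSF17, grouped by description (y axis), with filled points and SE bars for the infarct core and open squares for the border zone. The 3 IgA probes lie between 4.38 and 4.52 in the infarct core, the 13 probes listed under LOC396781 between 5.79 and 6.46, and 4 heavy chain VDJ probes lie below 0.

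The arms were compared in the same probes. Among the 32 probes other than IgA, the secretome minus medium difference ran from -3.66 to 0.67 in the border zone and from -2.50 to 0.34 in the infarct core. Limma called 0 of them in either region, beside 19 in the border zone and 1 in the infarct core at an unadjusted p under 0.05, where 7.24% and 4.87% of kept probes had one. The 19 include all 13 probes of the IgG heavy chain, and probes of the same gene are not separate observations.

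The other genes of plasma cells, B cells, B cell survival and the lymphoid niche were taken from 4 lists with 112 entries, of which 57 genes apart from the members were measured. Between infarct core and normal region 34 of the 57 were higher and 5 lower at a limma adjusted p under 0.05, beside 27.6% and 31.0% of all named genes. Their median difference was 0.88, beside -0.07 over all named genes. Against the border zone 28 were higher and 7 lower, beside 25.6% and 26.5%. Between border zone and normal region limma called 0 of the 57, beside 0.611% of named genes, and 15 had an unadjusted p under 0.05, beside 17.2% of named genes. The lists were drawn up with earlier results of these arrays known, and several of their genes are also expressed by other leukocytes.

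Of 7 measured plasma cell and antibody genes 5 were higher in the infarct core than in the normal region. Besides IgG these included PRDM1, the transcription factor that drives plasma cell differentiation, higher by 1.70 ± 0.25. XBP1, which expands the secretory machinery, was higher by 0.97 ± 0.13, and DERL3, a part of the endoplasmic reticulum quality control, by 0.67 ± 0.17. PIGR, the receptor that carries polymeric IgA across epithelia, passed as well, but it was well above background on 5 of 9 infarct core, 1 of 9 border zone and 0 of 6 normal region arrays, so that no size above at least 1.00-fold can be given.

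Of 12 measured B cell genes 8 were higher and 2 lower. CD72, a B cell surface receptor, was higher by 2.29 ± 0.25. BLNK, an adaptor of B cell receptor signalling, was higher by 1.57 ± 0.18, and CD40, the receptor for T cell help, by 1.42 ± 0.17. CD79A, a chain of the B cell receptor, was at least 3.76-fold higher, being well above background on 8 of 9 infarct core, 2 of 9 border zone and 0 of 6 normal region arrays. PAX5, the transcription factor of B cell identity, was lower, with a difference of -1.17 ± 0.26. VPREB3, expressed in B cell precursors, had a difference of -0.95 ± 0.30 and passed as lower. PAX5 and VPREB3 were added here after their values were seen.

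Among 12 measured genes of B cell survival and help 6 were higher and 1 lower. TNFSF13, which encodes APRIL, the ligand closest to BAFF, had a difference of -0.05 ± 0.17 between infarct core and normal region. IL10 was higher by 1.66 ± 0.26. IL6, a cytokine that supports plasma cells, was higher by 2.52 ± 0.44, while its receptor IL6R was lower at -0.83 ± 0.17. CXCR4, the receptor that keeps plasma cells in their niche, was higher by 1.80 ± 0.32.

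Of 26 measured genes of the lymphoid niche and homing 15 were higher and 2 lower. CCL21, the second ligand of CCR7 and the neighbour of CCL19, was higher in the infarct core than in the normal region by 1.28 ± 0.24. CCR7 itself was higher by 1.24 ± 0.31. CXCL13, which draws B cells into follicles, was higher by 3.05 ± 0.70, and IL7, a survival factor for lymphocytes made by stromal cells, by 2.69 ± 0.34. IL7 was well above background on 8 of 9 infarct core, 6 of 9 border zone and 2 of 6 normal region arrays.

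ACKR4, a scavenging receptor for CCL19 and CCL21, was higher by 2.25 ± 0.39, and was well above background on 9 of 9 infarct core, 8 of 9 border zone and 2 of 6 normal region arrays. SELP, an adhesion molecule of activated endothelium, was higher by 1.71 ± 0.27. MADCAM1, the endothelial address for gut-homing lymphocytes, was lower at -1.57 ± 0.23. ITGB7, a chain of the integrin that binds MADCAM1, was lower at -0.74 ± 0.22 and was added here after its value was seen. JCHAIN, TNFRSF13B, TNFRSF13C and CXCR5 were not analysed here.

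**Figure D3:**
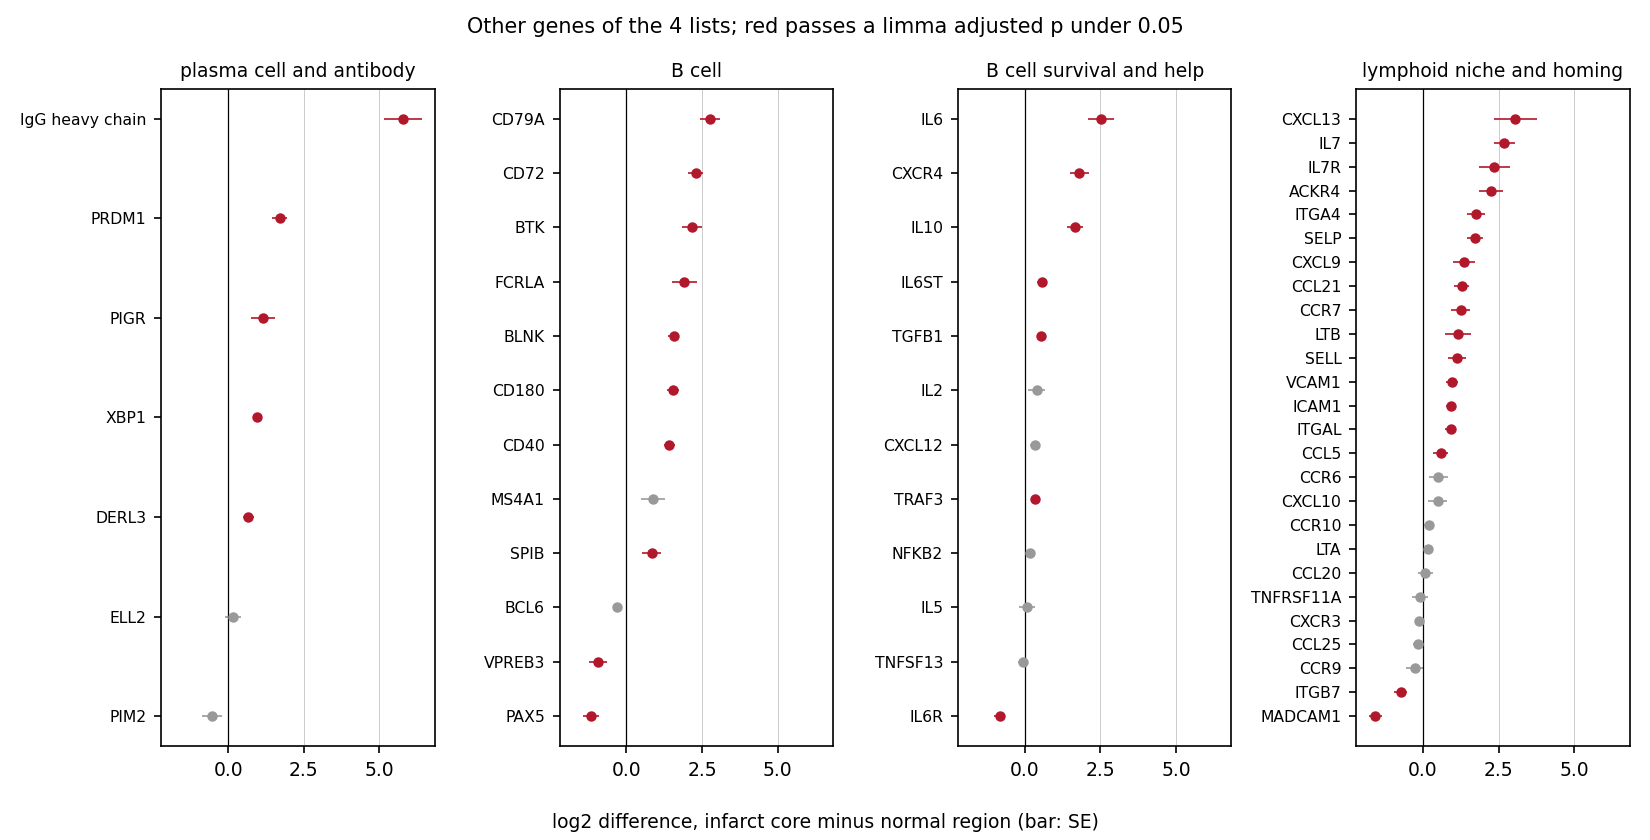
Log2 difference between infarct core and normal region (x axis) with SE bars for the 57 other genes of the 4 lists (y axis), in red where the limma adjusted p was under 0.05 and in grey otherwise. Points right of 0 are higher in the infarct core, with the IgG heavy chain at 5.79 the farthest right and MADCAM1 at -1.57 the farthest left.

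Between arms limma called 0 of the 57 genes in either injured region, where 11 in the infarct core and 15 at its border had an unadjusted p under 0.05, beside 5.55% and 8.77% of named genes. The fitted secretome minus medium difference was below 0 for 49 of the 57 in the former and 44 in the latter, with medians of -0.57 and -0.63. Over all 6545 named genes 3327 and 3305 were below 0, and the medians were -0.01 and -0.01. These genes are measured on the same arrays and vary together, so the counts of signs are not separate observations.

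Markers of several other cell types also differed between the regions. All 8 measured heart muscle markers were lower in the infarct core than in the normal region, and their mean level ran from 2.91 to 8.73 in the infarct core, 7.65 to 9.19 in the border zone and 8.51 to 9.27 in the normal region. The lowest level was in the infarct core of pig 40, and the ranges of the 3 regions overlapped. Of 8 macrophage markers 8 were higher, of 8 fibroblast and reticular cell markers 7, and of 10 T cell markers 8. The marker counts here are calls at a limma adjusted p under 0.05, beside 27.6% of named genes called higher and 31.0% lower. The mean macrophage marker level ran from 2.67 to 4.56 in the infarct core and from 1.48 to 2.39 in the normal region. Of 5 B cell markers 3 were measured, of which 1 was higher, CD79A, and 1 lower, PAX5. The third, MS4A1, differed by 0.88 ± 0.39, did not pass, and was well above background on 12 arrays. The mean of the 3 ran from -4.88 to -2.37 in the infarct core and from -5.16 to -3.58 in the normal region. Of 5 plasma cell markers only PRDM1 was measured by name. Of 6 dendritic cell markers 4 were higher, of 4 lymphatic endothelial markers 1 was higher and 2 lower, and of 2 markers of lymph node and spleen tissue 1 was higher, CCL21, and 1 lower, MADCAM1. The part of these cells in the member values was not tested.

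The marker levels of the arms overlapped in the infarct core. Heart muscle markers ranged there from 2.91 to 7.51 with medium and from 6.45 to 8.73 with secretome, and the medium pigs 10 and 18, at 7.51 and 6.89, lay inside the secretome range. Macrophage markers ranged from 3.72 to 4.56 with medium and from 2.67 to 3.84 with secretome, and in the border zone they stood at 2.61 or above with medium and from 1.42 to 2.62 with secretome. T cell markers ranged in the infarct core from -1.74 to 0.07 with medium and from -2.81 to -0.52 with secretome. Limma called 0 of these markers between arms, beside 3 of 8 heart muscle, 3 of 8 macrophage and 5 of 10 T cell markers at an unadjusted p under 0.05 in the infarct core, where 5.55% of named genes had one. Their part in the TNFSF13B values was not tested.

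**Figure D4:**
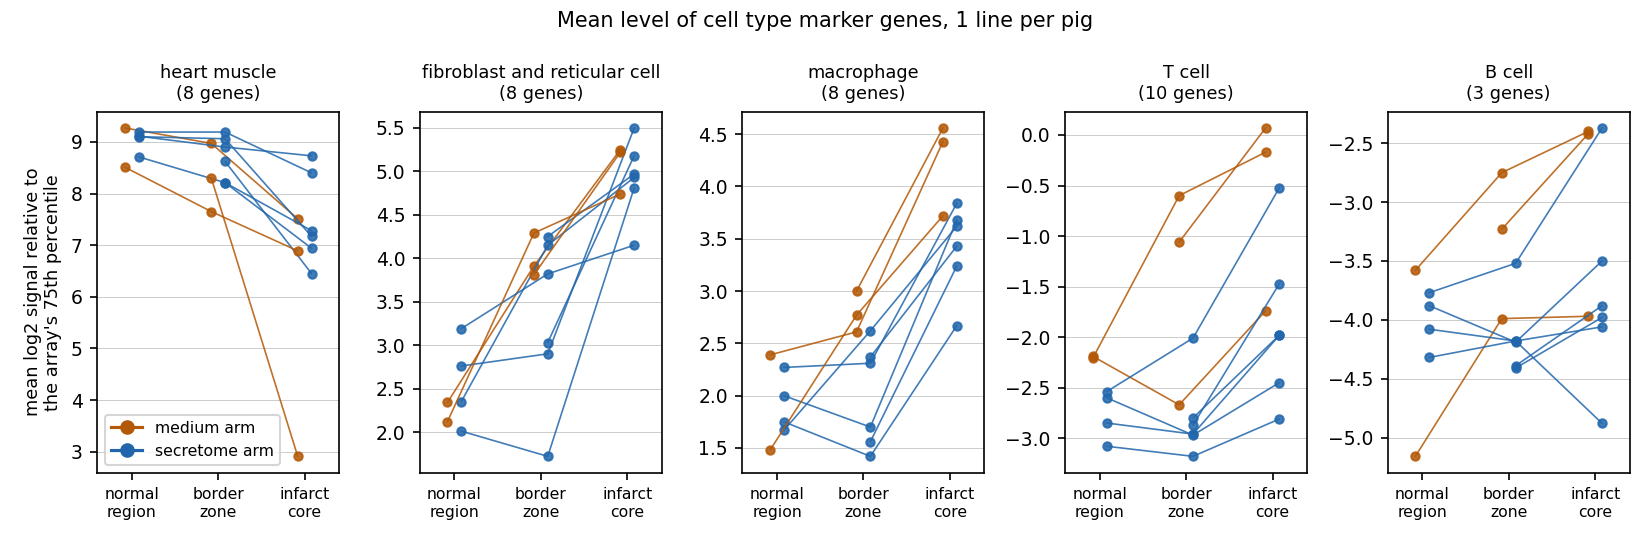
Mean log2 level of the measured marker genes of 5 cell types relative to each array's 75th percentile (y axis) by region (x axis), 1 line per pig, coloured by arm. Heart muscle markers are lowest in the infarct core, with pig 40 at 2.91, and macrophage markers there run from 2.67 to 4.56.

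The genes whose pattern came closest to each member differed. Likeness was measured by Pearson's r over the 24 arrays among 6545 named genes, as a description, since arrays of a pig, and all arrays of a region, share what sets them apart. IGHA was closest to LOC100152327, a lambda light chain gene (r = 0.95), and to the IgG heavy chain (r = 0.94), followed by AP3B1, SLC2A6 and SERPINB1, each at 0.93. TNFSF13B was closest to the leukocyte genes CD53, CD48 and AIF1, all at 0.97, and then to LCP1 and KMO at 0.96. CCL19 was closest to DOCK10 and ARPC5 at 0.95, then CASK, KLF8 and GNG12 at 0.93. The 3 members correlated with each other at 0.83 to 0.87.

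When each array was expressed as its deviation from the mean of its region and arm, which removes the regional difference, the order changed. The deviations still hold differences between pigs and between scan series, whose part in these correlations was not tested. IGHA then went most closely with TTF2 (r = 0.85), SLC2A6 (0.82), and CD79A, CXCL13 and SPIB, each at 0.81, although CD79A was well above background on only 10 arrays. TNFSF13B still went with CD53 (0.90), AIF1 (0.88) and CD48 (0.87), next to CTSH (0.86) and FCER1G (0.85). CCL19 went with DOCK10 (0.83), PI3 (0.80), PELI1 and LPIN2 (both 0.79) and ARPC5 (0.78), although PI3 was well above background on only 7 arrays. Between the members the deviations correlated at 0.47 for IGHA with TNFSF13B, 0.36 for IGHA with CCL19 and 0.55 for TNFSF13B with CCL19.

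Across the series 61.5% to 75.6% of probes per array were well above background. The lowest share and the lowest 75th percentile, 210 intensity units against up to 617, belonged to the border zone array of the medium pig 40. The arrays fell in 2 scan series, each with pigs of both arms, although pig 10 was the only medium pig of the second. Without pig 40 the infarct core minus normal region differences were 4.26 for IGHA, 2.25 for TNFSF13B and 2.07 for CCL19, and 35 list genes passed in place of 39.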

How the data were processed

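The 24 arrays were grouped by region, arm and pig from the labels. Spot intensity was taken from the deposited scanner files, where Agilent Feature Extraction (version 10.7.3.1, per the file headers) had subtracted background and removed spatial trends. The authors' deposited series table holds log2 values for 33348 probes, with limma 3.14.4 named in the submitters' processing notes. Its scale is log2, its column medians lie between 7.684 and 7.692, and its normalization is not given in the sources used here, so it served as an alternative.

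Flagged outlier spots were dropped, spots of a probe averaged, and signals divided by the array's 75th percentile before log2 was taken. Kept probes had no array flagged out and were well above background on 3 arrays or more, leaving 34278 of 43603 probes. By accession 9307 probes were named, by gene ID 1752 and by the array's own name 4182. Another 39 probes had several symbols and 28323 had none. The array files carry 2 versions of the design annotation, and both were read.

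Using R 4.3.3 with statmod 1.5.0 and version 1.17.8 of the data.table package, limma 3.58.1 fitted a mean per region and arm. Pig was a random block (correlation 0.548), with both arms weighted equally in region comparisons, and Benjamini-Hochberg adjustment over all kept probes with a threshold of 0.05. All 21 pairs of arrays from the same pig deviated together (r above 0.1, mean 0.585), and the labels give the pig. Arrays of different pigs and groups also deviated together within a scan series (mean r 0.442), and oppositely between series (mean r -0.457). No pig was scanned in both series, and the main fit had no term for the series. For a probe below background on every array of a region a bound is given. It sets the mean of the brighter region against the dimmer region's mean, where each dim array counts at the lowest signal among its probes well above background or at the probe's own, whichever is higher. The scripts were tested on simulated data. Figures were made with matplotlib 3.10.9 under Python 3.11.15 (pandas 2.3.3, numpy 2.4.6).

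The members, gene lists and rules were chosen with earlier results of these data known. The text names the members, the 4 genes with the smallest p between infarct core and normal region of each list, 12 fixed genes and immunoglobulin light chains where measured, and the 5 genes most like each member. Alternatives changed the scaling, background, filter, block, batch and pigs. No genome of the files' build, promoter or protein sequence was used here. The 24 arrays came from 9 pigs, with several regions per pig, and the number of pigs limits the precision.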

Additional observations from a re-analysis of the deposited data

How the results depend on the processing

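The infarct core stood above the normal region and the border zone for all 3 genes under every alternative run, except that CCL19 was not analysed here in the authors' values. TNFSF13B, whose signal is dim, moved most. With normexp background correction, an offset of 50 and quantile normalization its differences were 0.98 (infarct core minus normal region), 0.32 (border zone minus normal region) and 0.66 (infarct core minus border zone), and in the authors' deposited values 0.59, 0.17 and 0.42. Its border zone minus normal region difference was 1.49 within scan series 1 and 0.34 within series 2. In series 1 only pigs 16 and 18 gave a normal region array. CCL19 between infarct core and border zone was 1.90 within series 2. Its arm difference in the normal region turned to -0.02 within series 1, with 1 array per arm. The arm difference of CCL19 in the infarct core ranged from -0.62 to 0.15 with 1 pig left out. The cause was not tested.

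Of the 57 list genes, the number passing between infarct core and normal region was 39, and 23 within series 2, where fewer arrays entered. Between infarct core and border zone it was 35, with 21 when no replicate block paired the regions of a pig and 15 within series 2. Between border zone and normal region it was 1 with a filter of 12 arrays, and 1 within series 1, in place of 0. With 1 pig left out these counts ranged from 33 to 40, 28 to 36 and 0 to 0. The block changed no member's direction. Between arms no list gene passed under any alternative.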

Other observations

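One more probe is described as CCL19 in the array files but is not tied to the gene by name or accession. It was well above background on all 24 arrays. Its level was 1.37 to 1.95 on the 12 arrays of pigs 12, 13, 16, 18 and 40, scanned in one series, and -0.12 to 0.42 on the 12 arrays of the other series, with no overlap. Its infarct core minus normal region difference was 0.13 ± 0.24, against 2.12 ± 0.25 for the CCL19 probe. The CCL19 probe overlapped between the series, at -1.11 to 2.15 and -1.07 to 2.47.

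Once region and arm means were removed, TNFSF13B correlated with the IgG heavy chain at r = 0.64 and with IGHA at r = 0.47 over the 24 arrays, given as a description. The pig with the lowest IGHA value in the infarct core, pig 11 at 2.41, also had the lowest IgG value there, 4.53, and the lowest TNFSF13B value, -3.04. Its CCL19 value, 1.53, was the median of the 9 infarct core arrays. The same array had the lowest infarct core level of macrophage (2.67), T cell (-2.81) and B cell (-4.88) markers. Its fibroblast and reticular cell level, 4.81, was not the lowest. Its heart muscle level, 8.40, was below only that of pig 15, 8.73. The part of these cells in its values was not tested. These values were picked out after they were seen.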
